A study of Mus musculus with 34 samples.

Results

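The SMC1 peaks of unstimulated bone marrow-derived dendritic cells (BMDCs) with and without CTCF comprised 63638 peaks in WT and 29965 in KO, of 34 samples and 30 peak lists in the series. Members were assigned by position alone. A WT peak that shared at least 1 bp with a KO peak was called kept (21942 peaks), a WT peak that shared none was called lost (41696 peaks, 65.5% of the WT list), and a KO peak that shared none with a WT peak was called KO only (7573 peaks, 25.3% of the KO list). Bone marrow came from 8-week-old C57BL/6 mice, either CreER (WT) or CreER;CTCFfl/fl (KO), and was grown in GM-CSF for 6 days with 4-OH-tamoxifen on the first day in both genotypes. The inducible Cre was expressed from the ubiquitous Rosa26 locus, so the recombination was not restricted to dendritic cells, and CD11c-positive floating cells were selected after the culture. SMC1, CTCF and the histone marks used here were profiled without stimulation, whereas the STAT5 lists came from cells given GM-CSF again for 15 min. A second pair of SMC1 lists came from the same genotypes after 100 ng/ml LPS for 3 h and is used only to ask whether the classes recur. Each antibody and condition had 1 list, so no spread between replicates can be given and no difference between WT and KO was tested. The intervals given below are 95% Wilson intervals over peaks and cover counting error only. The median over the 19 autosomes of the share kept was 34.6%, with a lowest value of 31.5% and a highest of 36.9%. Chromosome X lay outside this range, with 11.1% of 884 WT peaks kept (9.18 to 13.3).

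SMC1 is a core subunit of cohesin, a ring-shaped complex that holds DNA strands and extrudes chromatin loops. CTCF is a zinc-finger protein that binds a long directional motif and halts cohesin, so that cohesin accumulates at CTCF sites and anchors loops there. Cohesin is also loaded and found at active promoters and enhancers, which carry H3K4me3 near start sites, H3K4me1 at enhancers and H3K27ac where either is active. In GM-CSF-derived dendritic cells, PU.1, an ETS-family factor, and STAT5, which is activated by the GM-CSF receptor, bind many such enhancers. The genotype was visible in the CTCF lists, which held 60537 peaks in WT and 20151 in KO, with a background coverage of 3.74 and 2.95 fragments per base recovered from their fold and p values. The residual KO peaks are used below as sites where CTCF was still called. Of 10 dendritic cell markers, 9 had an H3K4me3 peak at the promoter in both genotypes, against 0 of 10 T cell genes in WT and 1 of 10 in KO. Of 10 neutrophil and granule genes, 2 had such a peak in either genotype, as did 6 of 10 macrophage genes in WT and 7 of 10 in KO. For B cell genes it was 4 of 10 and for erythroid genes 4 of 9, in WT and in KO.

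The letters under the summits, the positions of highest SMC1 signal, are shown for single members of each class, since the frequency of some motifs there differed between the classes. Shown first are lost peaks outside promoters with the core of the CTCF motif in capitals, the strongest by fold over background with any CTCF call and the strongest whose CTCF peak was absent in KO. Windows run 50 bases to either side of the summit, on the plus strand of GRCm38 (mm10). The first lay in an intron of Nlrp1b at chr11:71224767-71224867, and the other in an intron, 39538 bp from its nearest start site, that of 2010300C02Rik, at chr1:37759573-37759673.
Lost, CTCF called in WT and KO: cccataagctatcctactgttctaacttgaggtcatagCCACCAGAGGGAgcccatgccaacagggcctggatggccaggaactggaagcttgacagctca
Lost, CTCF called in WT only: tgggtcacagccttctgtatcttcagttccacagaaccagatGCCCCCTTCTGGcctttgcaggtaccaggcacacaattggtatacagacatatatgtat
The Nlrp1b peak had a fold over background of 34.2 in WT and a peak after LPS in WT and none after LPS in KO. Its motif was on the plus strand, and it was called with CTCF, H3K4me1 and H3K27ac in both genotypes. The peak near 2010300C02Rik had a fold of 28.6, and its motif was on the minus strand. Although lost without stimulation, it overlapped an SMC1 peak after LPS in both genotypes.

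For the kept class, the strongest peak outside promoters with the CTCF core is shown to compare with the lost ones. It lay outside genes at chr6:145088589-145088689, 12455 bp from the start site of Bcat1, which encodes a branched-chain amino acid aminotransferase. Below it are the strongest kept peak with GAGGAAG, a core bound by PU.1 and other ETS factors, in an intron nearest to the start site of Gm11419 at chr11:81996258-81996358, and the strongest with that core, H3K27ac and STAT5 and without CTCF, in an intron of Anxa4 at chr6:86784829-86784929. The last line is the strongest KO only peak with the same core, in an intron nearest to the start site of Gm6276 at chr17:75175191-75175291.
Kept, CTCF core: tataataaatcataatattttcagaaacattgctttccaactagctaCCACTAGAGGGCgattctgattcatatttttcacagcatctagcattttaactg
Kept, ETS core: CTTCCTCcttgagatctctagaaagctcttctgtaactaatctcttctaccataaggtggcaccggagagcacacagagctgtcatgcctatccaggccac
Kept, ETS core, STAT5 and no CTCF: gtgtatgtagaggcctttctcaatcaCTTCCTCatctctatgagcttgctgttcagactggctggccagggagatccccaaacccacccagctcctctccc
KO only, ETS core: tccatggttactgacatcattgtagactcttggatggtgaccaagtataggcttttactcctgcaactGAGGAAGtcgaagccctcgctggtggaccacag
The Bcat1 peak had a fold of 53.9 in WT and 6.47 in KO and was called with CTCF in both. The Gm11419 peak also overlapped CTCF in both genotypes, so the presence of an ETS core did not separate it from CTCF sites. The Anxa4 peak had a fold of 21.1 and was called with SMC1 in all 4 SMC1 lists and with STAT5 in both genotypes. The KO only peak near Gm6276 had a fold of 7.89, no H3K27ac in either genotype and an SMC1 peak after LPS in KO.

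Kept, lost and KO only peaks carried different marks. H3K27ac in WT was present at 67.1% of kept peaks (66.4 to 67.7) and at 19.4% of lost peaks (19.0 to 19.8), and in KO at 35.6% of KO only peaks (34.5 to 36.6). CTCF in WT had the opposite order among WT peaks, with 25.5% of kept peaks (24.9 to 26.0) and 68.8% of lost peaks (68.4 to 69.3). Among KO only peaks, 5.11% overlapped a KO CTCF peak (4.64 to 5.63), and 5.65% overlapped a WT CTCF peak. The intervals of the 3 classes did not overlap for either mark.

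**Figure D1:**
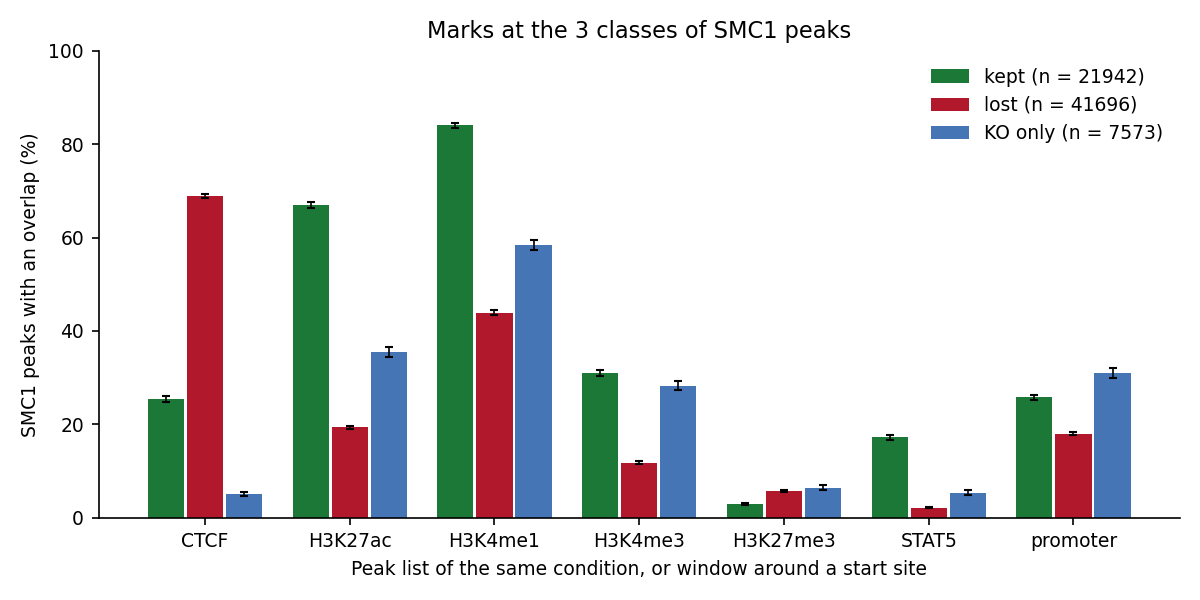
Bars give the percentage of kept, lost and KO only SMC1 peaks that overlapped a peak of each antibody in the same condition (WT for kept and lost, KO for KO only) or a window of 2.5 kb to either side of a start site (promoter), and error bars are 95% Wilson intervals. CTCF was most frequent at lost peaks (68.8%), whereas H3K27ac (67.1%), H3K4me1 (84.0%) and STAT5 (17.3%) were most frequent at kept peaks.

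H3K4me1 was found at 84.0% of kept, 43.9% of lost and 58.4% of KO only peaks. STAT5 was found at 17.3% of kept peaks (16.8 to 17.8), 2.21% of lost peaks (2.07 to 2.36) and 5.37% of KO only peaks (4.89 to 5.91). At a −log10 p of at least 10 in both SMC1 lists, the share of KO only peaks with STAT5 was 10.4%. H3K4me3 was found at 31.0% of kept and 28.3% of KO only peaks and at 11.8% of lost peaks. The order of kept and KO only for H3K4me3 turned where the SMC1 summit had to lie inside the H3K4me3 peak, with 23.8% of kept and 27.2% of KO only peaks, and at a −log10 p of at least 10 in both SMC1 lists, with 30.9% and 34.5%. H3K27me3, the mark of Polycomb repression, was rare in every class, at 2.97% of kept, 5.83% of lost and 6.43% of KO only peaks. In the KO list it was found at 10.3% of lost peaks and 3.38% of kept peaks.

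H3K27ac and H3K4me1 under the classes were mostly called in both genotypes. Of the kept peaks, 58.1% had H3K27ac in WT and KO, close to the 65.2% with H3K27ac in KO. Of the lost peaks, 7.52% had H3K27ac in WT and none in KO and 3.29% the reverse. Of the KO only peaks, 6.72% had H3K27ac in KO and none in WT, against 9.27% with H3K27ac in WT and none in KO. Gain of SMC1 calls in KO was therefore not accompanied by more gains than losses of H3K27ac calls. For H3K4me1, 7.14% of KO only peaks had the mark in KO alone and 6.75% in WT alone. The background coverage of the H3K27ac lists, recovered from their fold and p values, was 1.17 fragments per base in WT and 0.75 in KO, and its part in these small differences was not tested.

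The share of WT peaks that were kept followed the chromatin around them. Peaks outside promoters with both H3K4me1 and H3K27ac, the marks of active enhancers, were kept in 65.8% of 15148 cases, and those with H3K4me1 and no H3K27ac in 32.3% of 14316. Peaks outside promoters with none of H3K4me1, H3K27ac and H3K27me3 were kept in 6.57% of 18671 cases. At promoters with H3K4me3, 54.7% of 7171 peaks were kept, against 28.7% of 6010 at promoters without it. These groups made up very different parts of the classes, since active enhancers held 45.4% of kept and 12.4% of lost peaks, whereas unmarked distal sites held 5.59% of kept and 41.8% of lost peaks.

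**Figure D2:**
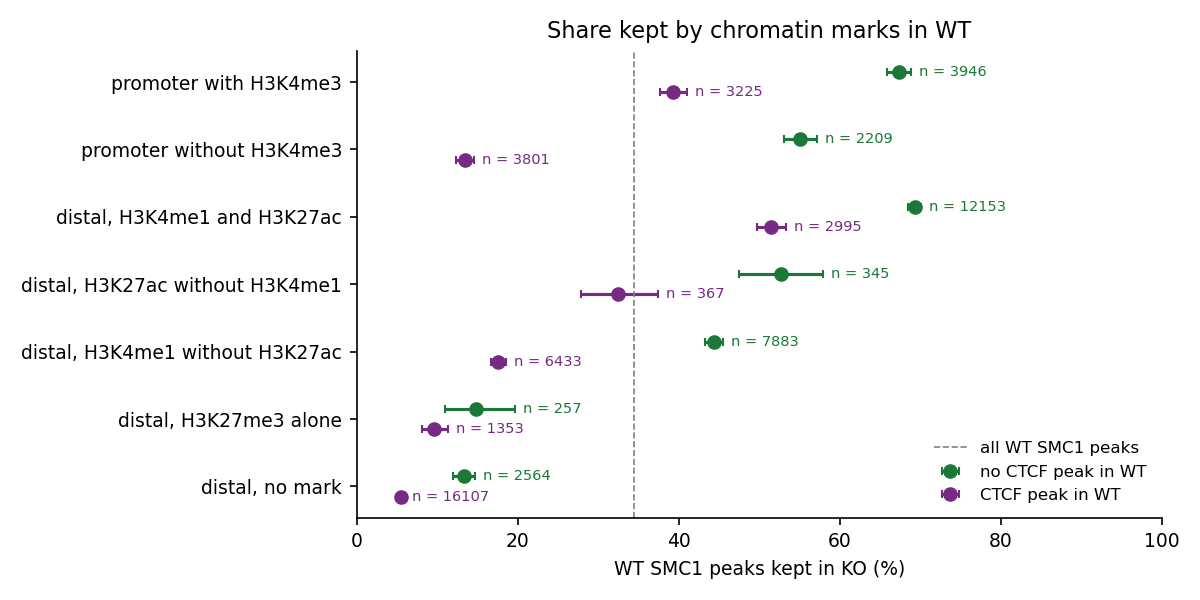
Points give the percentage of WT SMC1 peaks kept in KO for 7 exclusive groups of marks in WT, split by the presence of a CTCF peak in WT, with 95% Wilson intervals and the number of peaks in each group, and the dashed line marks the share over all WT peaks (34.5%). Within each group the peaks without CTCF were kept more often, from 69.3% against 51.5% at active enhancers to 13.3% against 5.50% at unmarked distal sites.

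CTCF and the histone marks each separated the classes within the other. At active enhancers, 69.3% of 12153 peaks without CTCF were kept (68.5 to 70.1) and 51.5% of 2995 peaks with CTCF (49.7 to 53.3). At promoters with H3K4me3, the shares were 67.4% without CTCF and 39.3% with it. For H3K27me3 alone, the shares were 14.8% of 257 peaks and 9.61% of 1353, and their intervals overlapped. The share kept also differed by distance to a start site, by less than it differed by CTCF. From within 1 kb to over 100 kb of the nearest start site, the share kept fell from 30.4% to 10.5% of peaks with CTCF and from 65.5% to 43.5% of peaks without it.

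Peak strength had a different relation to retention in each group. The WT list was divided into 10 equal bins by fold over background, from bin 1, the weakest (1.36 to 3.59), to bin 10, the strongest (12.8 to 97.0). Without CTCF and with H3K27ac, 31.9% of peaks in bin 1 were kept and 262 of 262 in bin 10. Without CTCF and without H3K27ac, the share was 17.6% in bin 1 and 97.1% in bin 8. With CTCF and without H3K27ac, the share was 4.10% in bin 1, 4.49% in bin 6 and 5.83% in bin 8, and reached 29.6% of 4614 peaks in bin 10. In each bin up to bin 9, CTCF sites without H3K27ac were kept less often than bin 1 of the sites with neither mark.

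**Figure D3:**
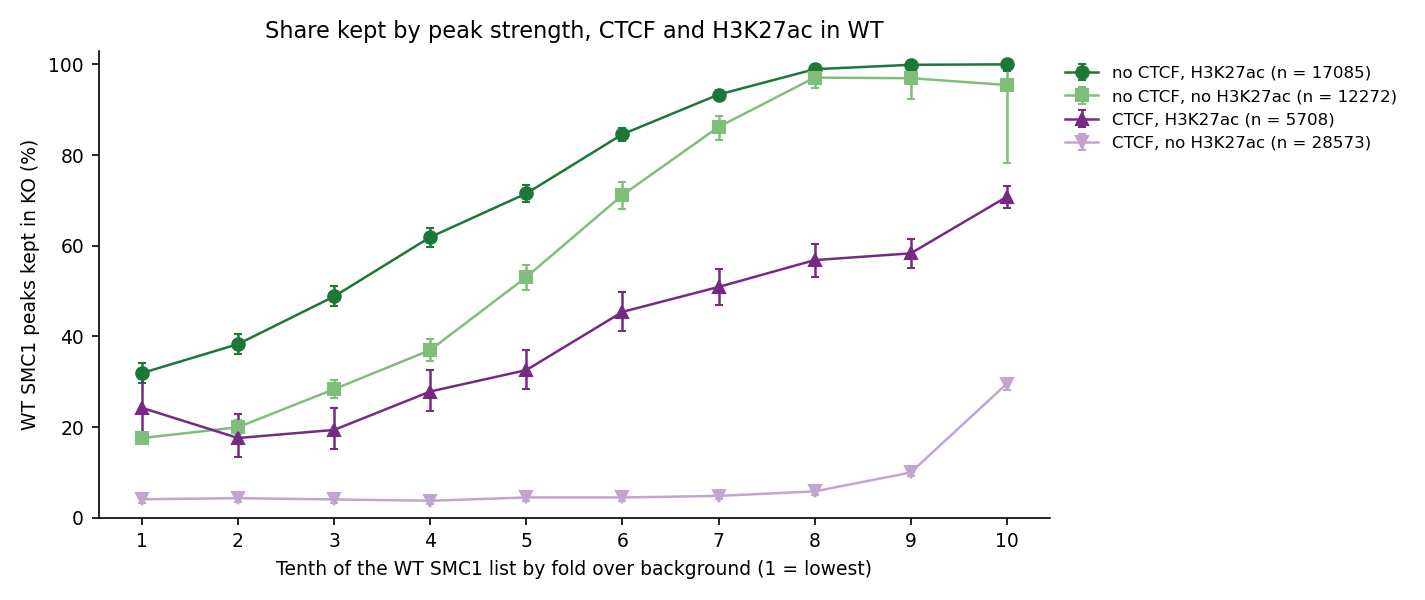
The x axis gives 10 equal bins of the WT SMC1 list by fold over background, weakest first, and the y axis the percentage of WT peaks kept in KO, for the 4 combinations of CTCF and H3K27ac peaks in WT, with 95% Wilson intervals. In bin 8, 98.9% and 97.1% of the peaks without CTCF and 5.83% of those with CTCF and no H3K27ac were kept, and the latter reached 29.6% in bin 10.

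CTCF sites with residual CTCF in KO were kept more often than those without. Of 13525 WT SMC1 peaks with CTCF in both genotypes, 24.9% were kept (24.2 to 25.7), against 10.7% of 20756 with CTCF in WT only (10.3 to 11.1) and 55.7% of 28941 with CTCF in neither. Without H3K27ac, the shares were 17.8% with CTCF in both and 4.04% with CTCF in WT only, and with H3K27ac they were 60.2% and 44.2%. In bin 10 without H3K27ac, 34.2% of 3854 peaks with residual CTCF were kept and 6.32% of 760 without it. In bin 1 the shares were 15.4% of 188 and 2.70% of 1519, and in bin 7 they were 4.88% and 4.82%. The intervals overlapped in bins 5, 6 and 7 and in no other bin. CTCF was also called in both genotypes at 24.4% of lost peaks, so SMC1 calls were absent at many sites where CTCF was still called.

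Among the single marks in WT, STAT5 had the highest share kept after p65, an NF-kB subunit (94.6% of 704 peaks). Of 4710 WT SMC1 peaks that overlapped a WT STAT5 peak, 80.4% were kept (79.3 to 81.5), against 30.8% of the other 58928. Among peaks with H3K27ac the shares were 85.7% with STAT5 and 60.6% without, and among peaks without H3K27ac they were 64.0% and 16.4%. With both H3K27ac and STAT5, the share was 84.7% of 562 peaks with CTCF (81.5 to 87.4) and 85.9% of 3007 without it (84.6 to 87.1), and these intervals overlapped. With STAT5 and no H3K27ac, it was 51.5% of 268 peaks with CTCF (45.5 to 57.4) and 67.8% of 873 without it (64.6 to 70.8), and these intervals did not overlap. Peak strength was not held equal in these comparisons. The 922 lost peaks with STAT5 had a lower median fold than the 3788 kept ones, 4.11 against 6.87. H3K27ac was present at 55.4% of these lost peaks and 80.7% of the kept ones.

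The letters under the summits differed in the same way. The 12-base core of the CTCF motif, with at most 1 mismatch and on either strand, was found within 50 bp of the summit of 35.6% of lost peaks (35.1 to 36.0), 9.68% of kept peaks (9.30 to 10.1) and 0.409% of KO only peaks (31 peaks). With no mismatch allowed, the shares were 9.09%, 3.30% and 0.0132%, in the same order. In windows of the same length 1 kb from the summits, the shares were 1.16%, 0.934% and 0.779%. The ETS core GAGGAAG was found at 12.4% of kept peaks, 6.15% of KO only peaks and 4.76% of lost peaks, with 3.77%, 3.35% and 3.46% in the windows 1 kb away. The AP-1 site TGANTCA was at 8.59% of kept, 5.39% of KO only and 3.80% of lost peaks, over 3.11%, 2.98% and 2.86% away from the summits.

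Other motifs had smaller contrasts. The C/EBP site TTGCNNAA was found at 6.87% of kept peaks against 4.21% 1 kb away, and at 4.21% of lost peaks against 4.08%. The IRF site GAAANNGAA was at 4.99% of kept, 3.75% of KO only and 3.33% of lost summits, and at 3.32%, 3.45% and 3.34% away from them. The RUNX site TGTGGTT was the exception, at 6.58% of kept and 7.24% of lost peaks and 3.10% of KO only peaks. At lost peaks with CTCF it was found at 7.81%, and at lost peaks without CTCF at 5.98%. The STAT5 site TTCNNNGAA was at 3.69% of all kept summits and 2.59% of lost ones, with 3.02% and 2.99% 1 kb away. It was at 13.0% of the 3174 kept peaks with STAT5 and without CTCF, compared with 1.77% of the 13181 kept peaks with neither. Among peaks with STAT5, the site was at 19.3% of the 922 lost ones (16.9 to 22.0) and 12.5% of the 3788 kept ones (11.5 to 13.6).

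The lost class was not uniform. Its 28694 peaks with CTCF in WT had a median fold of 6.09 and a median width of 466 bp, and 84.3% of them overlapped an SMC1 peak after LPS in WT and 1.70% one after LPS in KO. The CTCF core was found at 50.1% of these summits and the ETS core at 2.56%. The 13002 lost peaks without CTCF were weaker and narrower, with a median fold of 3.75 and a median width of 313 bp. Of these, 73.9% had H3K4me1 and 40.4% H3K27ac, 35.8% overlapped an SMC1 peak after LPS in WT, and the ETS core was found at 9.60%. The 16355 kept peaks without CTCF had each of these more often, with H3K4me1 at 89.7%, H3K27ac at 72.3% and the ETS core at 14.6%, and a median fold of 5.15. For 1381 of the lost peaks without CTCF or H3K27ac, no other of the 30 lists held a peak.

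Kept peaks were not kept at the same size. Over all 21942 kept peaks, the median width was 599 bp in WT and the overlapping KO peak with the nearest summit had a median width of 447 bp. At the 16355 kept peaks without CTCF the median of the KO to WT width ratio was 0.884, and the median fold was 5.15 in WT and 4.73 in KO, each within its own list. At the 3370 kept peaks with CTCF in both genotypes the ratio was 0.418, and the median fold was 15.6 in WT and 4.42 in KO. The KO fold was the lower value in 95.6% of these pairs and in 65.3% of pairs without CTCF. Background coverage recovered from fold and p was close in both SMC1 lists, 5.40 fragments per base in WT and 5.34 in KO. An overlap therefore did not mean equal signal, above all at CTCF sites.

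Summits of kept peaks mostly stayed in place. The nearest KO summit lay within 100 bp of the WT summit for 73.2% of kept peaks, with a median distance of 54 bp. Without CTCF the median was 53 bp, with CTCF in both genotypes 46 bp, and with CTCF in WT only 82 bp with an upper quartile of 222 bp. Where the WT summit held the CTCF core and no CTCF was called in KO, 401 peaks, the median distance was 174 bp and 38.4% of KO summits lay within 100 bp (33.8 to 43.3). Where CTCF was still called in KO, 1724 peaks, the median distance was 43 bp and 77.3% lay within 100 bp. Only 20.4% of the KO summits of the former held the CTCF core, compared with 52.9% of the latter.

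**Figure D4:**
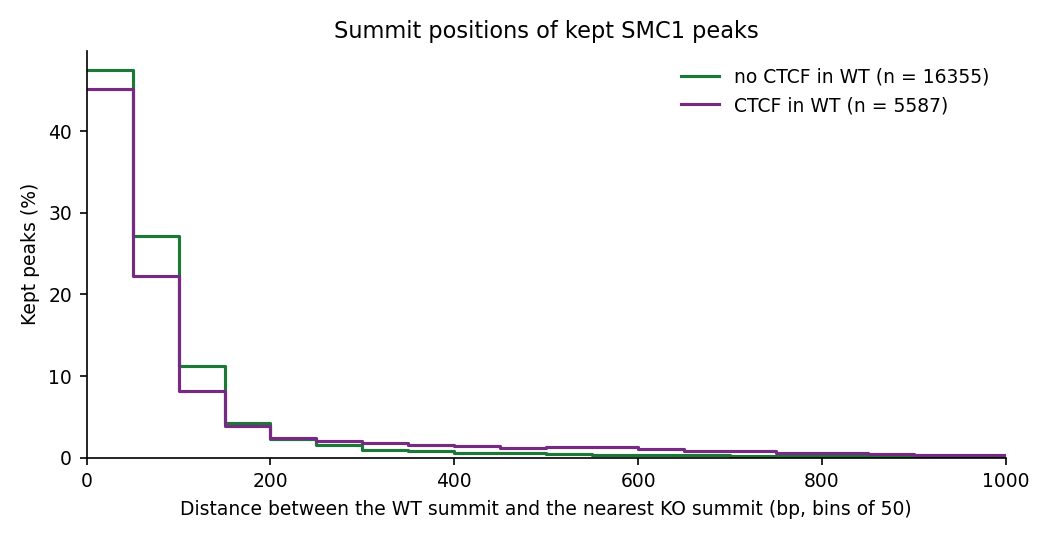
Lines give the percentage of kept SMC1 peaks by distance between the WT summit and the nearest KO summit of an overlapping peak, in bins of 50 bp, for peaks with and without a CTCF peak in WT. Both distributions were highest in the first bin, and the peaks with CTCF had the longer tail, with an upper quartile of 145 bp against 100 bp.

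The KO only peaks were weak and partly unmarked. Their median fold was 3.79 and their median width 294 bp, compared with 4.58 and 441 bp for KO peaks that met a WT peak. Promoters held 31.0% of KO only peaks (29.9 to 32.0), 25.8% of kept peaks (25.2 to 26.3) and 18.1% of lost peaks (17.7 to 18.4). At the 2345 KO only peaks at promoters, 73.3% had H3K4me3 and 67.2% had H3K27ac in KO. At the 5228 outside promoters, 63.7% had H3K4me1 and 21.4% had H3K27ac, so most distal ones lacked the mark of active enhancers. No H3K27ac, H3K4me1 or H3K4me3 was found at 24.9% of KO only peaks, compared with 50.1% of lost and 6.72% of kept peaks. For 853 KO only peaks (11.3%), no other list held a peak, and the summit windows had a median GC content of 38.6%, against 46.5% for kept and 45.5% for lost peaks. The part of depth or base composition in these calls was not tested. KO only summits lay a median of 5706 bp from the nearest WT summit, and 23.9% lay within 2 kb of one.

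The classes recurred to different degrees after LPS. Of the kept peaks, 84.7% overlapped a WT LPS peak, 54.2% a KO LPS peak and 51.4% both. Of the lost peaks, 66.4% overlapped a WT LPS peak and no KO LPS peak, and 2.78% overlapped both. Of the KO only peaks, 10.7% overlapped a KO LPS peak and no WT LPS peak, 13.5% the reverse and 69.6% neither. The pattern of the lost class was therefore found again in a second pair of lists for most of its members, and that of the KO only class for few. The lost pattern, a WT LPS peak and no KO LPS peak, was also found at 33.3% of kept peaks. The KO LPS list was shorter, with 17241 peaks against 57354 in the WT LPS list, and its background coverage was 4.49 fragments per base against 5.76. The 809 KO only peaks that recurred had more promoters (47.7%) and more CTCF (21.4% with a KO CTCF peak) than the class as a whole.

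Single peaks show the range within the classes. Among kept peaks at promoters, the strongest overlapped the window of Btnl9, a butyrophilin-like gene (chr11:49188750-49190978), with a fold of 50.1 in WT, but its KO peak had a fold of 4.10 and a summit 730 bp away. Near Hist1h4c, a histone H4 gene (chr13:23700668-23702644), the fold was 40.8 in WT and 6.00 in KO. Near Ceacam1, an adhesion receptor gene (chr7:25478712-25480104), it was 39.5 and 6.47. All 3 overlapped CTCF peaks in both genotypes, held the CTCF core and had SMC1 peaks in all 4 lists. Outside promoters, an intronic kept peak 3368 bp from the start site of Ramp3, which encodes an accessory protein of the calcitonin receptor family (chr11:6654705-6655828), had a fold of 49.7 in WT and 9.94 in KO. The highest fold among the named kept peaks, nearest to 4930524B15Rik (chr11:31922589-31922861), was 80.3 in WT and 83.5 in KO over a narrow interval. This interval was called in 22 of the 30 lists, and over all kept peaks the fold reached 97.0 in WT. Of the 353 WT SMC1 peaks found in 20 or more lists, 352 were kept.

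Among lost peaks at promoters, the strongest of the same selection lay at Eya3, a transcriptional coactivator and phosphatase gene (chr4:132635949-132637186), with a fold of 35.3. It was followed by Topbp1, a DNA replication and damage response gene (chr9:103302352-103303529), with a fold of 29.8, and by Olfr554, an olfactory receptor gene (chr7:102636198-102637975), with 27.2. All 3 overlapped CTCF in both genotypes, so these strong SMC1 calls were absent in KO while CTCF was still called. After LPS, the Eya3 peak overlapped an SMC1 peak in both genotypes and the other two in WT alone. Outside promoters, a peak in an intron of Plekhb2 (chr1:34866887-34867690) reached a fold of 37.2. One in an exon of Slc26a11, a sulfate transporter family gene (chr11:119363330-119364349), reached 35.8, and both overlapped CTCF in both genotypes and no H3K4me1, H3K4me3 or H3K27ac peak. The strongest lost peak, in an intron of Pcca (chr14:122568937-122569118), was narrow, had a fold of 60.6 and overlapped no CTCF peak in either genotype. After LPS, SMC1 was called at the Slc26a11 peak in WT alone, at the Plekhb2 peak in both genotypes and at the Pcca peak in KO alone. Over all lost peaks, 3.63% overlapped an SMC1 peak after LPS in KO.

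Among KO only peaks at promoters, the strongest lay at Dcp1a, an mRNA decapping gene (chr14:30479282-30479892), with a fold of 7.89, and at Irgq, an immunity-related GTPase gene (chr7:24529996-24530785), with 7.10. Both had H3K4me3 and H3K27ac in both genotypes, no CTCF, and SMC1 peaks after LPS in WT and KO. A peak at Npas4, an activity-dependent neuronal transcription factor gene (chr19:4988934-4989447), also had a fold of 7.10, but no other list held a peak there. Outside promoters, an intronic peak whose nearest start site was that of Emilin2, an extracellular matrix gene (chr17:71256804-71257521), had a fold of 7.26 with H3K4me1, H3K27ac and STAT5 in both genotypes. An intronic peak near Gm49387 (chr14:31617901-31618314) and a peak outside genes near Sar1b (chr11:51808746-51808922) each had a fold of 7.64 and no H3K27ac. The Sar1b peak overlapped CTCF in both genotypes and SMC1 peaks after LPS in WT and KO. The Gm49387 peak overlapped no CTCF peak and an SMC1 peak after LPS in KO alone.

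Promoters of protein-coding genes were then read as having an SMC1 peak in WT, KO, both or neither. Of 21938 promoters, 3763 (17.2%) had a peak in both, 3052 (13.9%) in WT and none in KO, 1081 (4.93%) in KO and none in WT, and 14042 in neither. H3K27ac in WT was present at 92.5% of promoters with SMC1 in both, 58.8% of those with SMC1 in WT alone, 86.5% of those with SMC1 in KO alone and 26.4% of those with none. In KO the shares were 92.7%, 57.5%, 90.9% and 26.9%. CTCF in WT was present at 81.1% of promoters with SMC1 in WT alone (79.7 to 82.5), 54.7% of those with SMC1 in both (53.1 to 56.3) and 23.3% of those with SMC1 in KO alone (20.9 to 25.9). Promoters that gained an SMC1 call were thus active ones by these marks in both genotypes, with CTCF at fewer of them.

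Gene lists were read beside all protein-coding genes, of which 17.2% had promoter SMC1 in both genotypes, and beside those with H3K4me3 in WT, of which 27.4% did. The counts with a peak in both were 13 of 15 for the GM-CSF receptor and STAT5 pathway, 9 of 11 for MHC class II antigen presentation, 8 of 10 for costimulatory and checkpoint ligands, 15 of 20 for myeloid and dendritic cell transcription factors, and 8 of 14 for C-type lectin and other dendritic cell receptors. For the innate lists, they were 12 of 19 in the TLR pathway, 9 of 13 for NF-kB subunits and inhibitors, 16 of 23 for LPS-inducible cytokines and enzymes and 6 of 14 for interferon-stimulated genes. Lists of other cell types had 1 of 10 neutrophil and granule genes, 0 of 10 T cell genes, 2 of 10 B cell genes, 1 of 9 erythroid genes and 6 of 10 macrophage genes. The lists were chosen with earlier results of these data known, and these counts are a description.

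**Figure D5:**
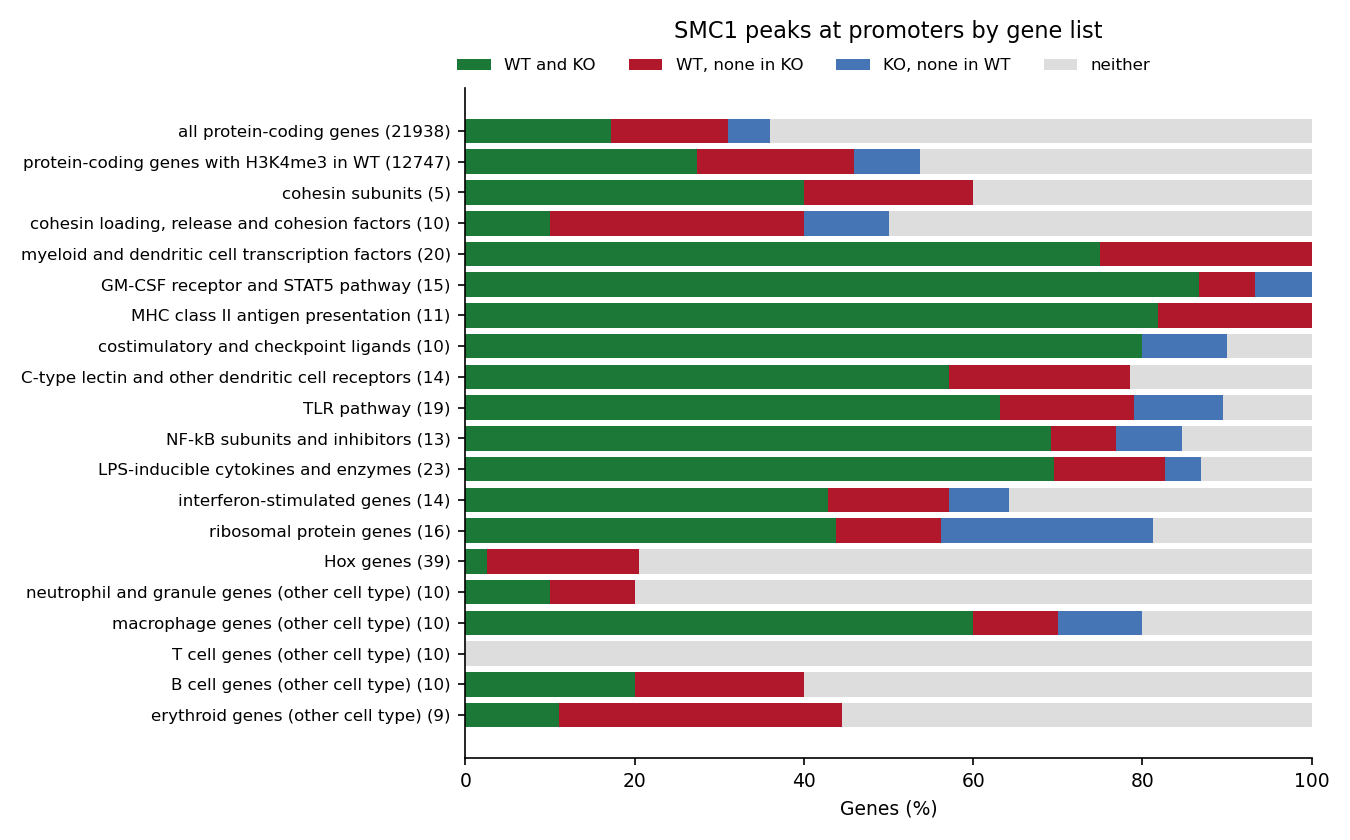
Stacked bars give the percentage of genes whose promoter (2.5 kb to either side of the start site) had an SMC1 peak in WT and KO, in WT with none in KO, in KO with none in WT, or in neither, with the number of annotated genes in brackets. Among protein-coding genes, 17.2% had a peak in both, and among the lists the share was highest for the GM-CSF receptor and STAT5 pathway (13 of 15) and lowest for T cell genes (0 of 10).

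The peaks around the start sites were counted next. Within 50 kb of the start site, the median gene with a WT SMC1 peak kept 22.2% of its peaks, and the median gene with H3K4me3 and such a peak 25%. The medians were 61.9% for MHC class II genes, 61.6% for C-type lectin and other receptors, 56.2% for LPS-inducible genes, 55.6% for the GM-CSF and STAT5 list, 55% for costimulatory ligands, 48.3% for the transcription factors and 46.2% for the TLR pathway. Ribosomal protein genes, which are expressed in all cells, had a median of 33.3%. The medians were 50% each for dendritic cell markers, NF-kB subunits and inhibitors, interferon-stimulated genes and the macrophage list. Those of the other cell types were lower, at 33.3% for T cell, 29.2% for neutrophil and granule, 25% for B cell and 20% for erythroid genes. Hox genes, of which 2 of 39 had H3K27ac at the promoter in either genotype, had a median of 6.25%. A gene may share peaks with its neighbours, since MHC class II, C-type lectin and Hox genes lie in clusters, and list members are not independent.

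In the GM-CSF and STAT5 list, Cish, a STAT5-induced inhibitor of cytokine signalling, had 3 WT peaks in its promoter window. The one 2280 bp upstream of the start site (chr9:107293416-107295018) had CTCF in both genotypes and a fold of 24.2 in WT, against 3.47 at the overlapping KO peak. The one 656 bp upstream (chr9:107295387-107296776), without CTCF, had a fold of 5.62 in WT and 4.73 in KO. At this 1 promoter, the KO fold was thus further below the WT fold at the CTCF site than at its neighbour. Jak2, the kinase of the GM-CSF receptor, had 25 WT peaks within 50 kb, of which 16 were kept. Socs3, another feedback inhibitor, kept 10 of 13 and Bcl2l1, a survival gene, 5 of 7. Ccnd2, a cyclin D gene, was the 1 member with SMC1 in WT alone, with a WT peak of fold 12.3 over a CTCF site (chr6:127147502-127148695). Socs2 was the 1 member with a peak in KO alone, 2353 bp upstream of its start site, with a fold of 3.47.

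In the MHC class II list, H2-DMb2, a chain of the peptide-loading chaperone H2-DM, had a promoter peak without CTCF (chr17:34142465-34143984) with a fold of 11.9 in WT and 12.8 in KO. Ctss, the protease cathepsin S that processes the invariant chain, had a peak at its start site (chr3:95526050-95527503) with a fold of 5.93 in WT and 6.78 in KO, and H2-Ab1, a class II beta chain, had 5.93 and 4.73. H2-DMb1 and H2-Oa, with folds of 4.22 and 3.64 in WT, had no KO peak at the promoter. These 2 losses were of weak peaks in a region where H2-DMb1 kept 13 of 19 peaks within 50 kb. Ciita, the master regulator of class II genes, kept 16 of 23, with a peak at the promoter in both genotypes.

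Among costimulatory and checkpoint genes, Cd274, which encodes PD-L1, had 4 WT promoter-window peaks, and all 4 were kept. Its downstream peak, 3352 bp past the start site and with CTCF (chr19:29368630-29372617), had a fold of 11.6 in WT and 4.26 in the overlapping KO peak, whose summit lay 1213 bp past the start site. Its peak at the start site had 5.15 in WT and 5.36 in KO. Cd80 had promoter folds of 9.99 in WT and 7.57 in KO, and Cd86 had 7.81 and 6.78. Tnfsf9, the ligand 4-1BBL, was the 1 member with SMC1 in KO alone, with 2 promoter peaks of fold 4.26. Among the receptors, Itgax, which encodes CD11c, had folds of 9.53 in WT and 6.31 in KO at the promoter. Flt3, a growth factor receptor gene of dendritic cell progenitors (fold 6.56), Ccr7, the chemokine receptor for migration to lymph nodes (4.84), and Mrc1, the mannose receptor (3.44), had a peak in WT alone.

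Among transcription factors, the strongest kept promoter peak of Nfil3 had folds of 20.3 in WT and 5.52 in KO, that of Cebpa 17.3 and 5.68 and that of Bcl6 15.6 and 4.26, each with CTCF in both genotypes. That of Runx1, without CTCF, had 14.2 and 9.62. Irf8, Spi1 (PU.1) and Zbtb46, which mark the dendritic and myeloid lineages, also had kept promoter peaks, with folds of 4.06, 8.43 and 6.09 in WT and 3.47, 5.36 and 4.10 in KO. A stronger WT peak at Irf8, 1108 bp past the start site and with a fold of 5.47, was lost. Irf4, a factor of conventional dendritic cells, had 3 peaks in WT alone with no CTCF, the highest with a fold of 4.68 (chr13:30749841-30750582). Nr4a1 (4.84), Egr1 (5.15) and Relb (4.22) also had a WT peak alone.

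In the innate lists, the promoter of Tnfaip3, the NF-kB inhibitor A20, had a WT peak (chr10:19011827-19015853) with a fold of 25.8 and a KO peak with a fold of 15.1 whose summits lay 75 and 29 bp upstream of the start site. Irak2, a kinase of TLR signalling, had a WT peak of fold 25.1 (chr6:113637978-113638814) and a KO peak of 5.21, both at a CTCF site. Its neighbour 944 bp upstream, with a fold of 5.62, was lost. Nfkbia, which encodes IkB alpha, had a CTCF site 2537 bp upstream with folds of 22.6 in WT and 3.63 in KO, and a peak at the start site without CTCF with 7.81 and 5.05. The strongest WT promoter peaks of the cytokine gene Il6 (19.99) and the chemokine gene Ccl17 (21.5) lay at sites with CTCF in both genotypes and were lost, while weaker ones were kept, with folds of 7.65 in WT and 6.15 in KO at Il6 and 8.90 and 4.73 at Ccl17. Ccl3, another chemokine gene, had a kept peak with 13.3 and 10.1. Nos2 (10.9), Ptgs2 (4.997) and Acod1 (4.84) had a promoter peak in WT alone. Rela, which encodes p65, had a peak in KO alone, 958 bp upstream of the start site, with a fold of 4.10, and Tirap (4.10), Traf6 (3.79), Il27 (3.63) and Ifih1 (3.47) were further members of this kind.

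Around the genes of cohesin subunits, 3 of 19 WT peaks within 50 kb were kept, and around those of cohesin loading, release and cohesion factors, which include Ctcf, 11 of 50. Summed in the same way over all protein-coding genes, 34761 of 102229 were kept, with a peak counted for each gene near it. Of the 5 subunit genes, 3 had a WT peak, and 5 of the 19 peaks lay around Stag2 on chromosome X. The median share kept in the latter list was 22.2%, equal to that over all protein-coding genes. Smc1a and Rad21 had no SMC1 peak within 50 kb, and the 5 WT peaks around Ctcf were all lost. At Stag1 the WT promoter peak (fold 9.53, chr9:100642123-100643844) was lost and a separate KO only peak (fold 3.63) lay 1494 bp past the start site, so SMC1 was present in both genotypes without a shared position. Stag2, on chromosome X, had peaks in WT alone. Smc3 kept 3 of 12 peaks within 50 kb and Nipbl, the cohesin loader, 2 of 9. Pds5b (4.53), Esco1 (4.06) and Mau2 (3.44) had a promoter peak in WT alone, and Cdca5, which encodes sororin, had one of fold 3.86 in KO alone.

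Ribosomal protein genes and Hox genes were used as outside lists. Of 16 ribosomal protein genes, 4 had a promoter SMC1 peak in KO alone, namely Rpl18 (fold 5.52), Rps3 (5.05), Rpl7 (4.42) and Rpl5 (3.94). The share in KO alone was 4.93% of all promoters and 7.83% of those with H3K4me3 in WT, which all 16 had. Of 39 Hox genes, 7 (17.9%) had SMC1 at the promoter in WT alone and 0 in KO alone, compared with WT alone at 13.9% of all promoters and 18.5% of those with H3K4me3. The 6 strongest of these 7 were Hoxd8 (9.53), Hoxb5 (8.43), Hoxa7 (7.81), Hoxc8 (6.25), Hoxa3 (5.78) and Hoxb6 (4.997), each with CTCF at the promoter in WT and no H3K27ac.

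Genes were last ranked by the number of class peaks within 50 kb. The genes with the most kept peaks were Clec1a, a C-type lectin gene, with 20 of 26 kept, Gm10715 with 20 of 21, Batf3, a factor required for cross-presenting dendritic cells, with 19 of 24, Pdcd1lg2, which encodes PD-L2, with 19 of 26, Mpeg1, the pore-forming perforin-2 gene, with 17 of 20, and Ccr1, a chemokine receptor gene, with 17 of 22. At Gm10715, 16 of the 21 WT peaks were found in 20 or more of the 30 lists, a pattern that set it apart from the other 5. Each of the 6 had SMC1 at the promoter in both genotypes. The most lost peaks with none kept were found around Dnajc22 and 4930539E08Rik, with 12 each, and around Mcam, an endothelial adhesion gene, Parp14, an interferon-induced ADP-ribosyltransferase gene, AL732309.1 and Nup85, a nucleoporin gene, with 11 each. Such loci were rare among genes with many peaks, since 25 of 3102 genes with 10 or more WT peaks within 50 kb had none kept, and 0 had all kept. H3K27ac was present at 2 of these 6 promoters, Parp14 and Nup85, in both genotypes.

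The most KO only peaks lay around Nxpe5, with 12, Olr1, the oxidised LDL receptor gene, with 11, Cd48, a costimulatory receptor gene, and Ms4a4c, with 9 each, and Aldh1a2, which makes retinoic acid, and Serpinb9b, a granzyme inhibitor-like gene, with 8 each. Around Olr1 15 of 19 WT peaks were kept, whereas around Cd48 6 of 14 were kept and 8 lost. Around Nxpe5 the KO only peaks outnumbered the 6 WT peaks. All but Serpinb9b had SMC1 at the promoter in both genotypes.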

How the data were processed

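ChIP-seq libraries were made by tagmentation and sequenced paired-end. Per the study's methods the authors trimmed the reads, aligned them with BWA to mm10, removed duplicates with Picard and called peaks with MACS2. The submitters' processing notes name BWA 0.7.12, Picard 1.77 and MACS2 2.1.2. The methods describe peak calling per sample and per biological replicate. Which of these a deposited list holds, and whether input was the control, is not given in the sources used here. The deposited lists give a fold ratio over background and −log10 p-values for each peak, as the authors' MACS2 wrote them. The SMC1 and CTCF lists end at a −log10 p of 7, and the other lists at lower values. Reads and library totals were not used here, and the depth is known only as background coverage recovered from fold and p (a Poisson tail, matched within 0.002).

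Here, overlaps of at least 1 bp, motifs and start sites (GENCODE vM21, GRCm38, the transcript with the longest span, promoter 2.5 kb to either side) were computed with Python 3 (pandas, numpy, pysam), and the steps were checked on simulated data. The classes are the comparison of 1 WT and 1 KO list, and fold values are relative within each list. Lost and kept peaks were set against WT lists and KO only peaks against KO lists, with the other genotype as a second value.

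Named peaks were the 3 highest by fold per class at and outside promoters, off chromosomes Y and 18, with a protein-coding nearest gene. Named list genes were up to 6 in 1 genotype and up to 4 in both per list, by fold. Some list genes are not reported here. Irf8, Spi1, Zbtb46, Ciita, H2-Ab1, Itgax, Smc1a, Rad21 and Ctcf were named after their values were seen. Genes with the most class peaks within 50 kb were 6 per class, 1 per 200 kb. Shown sequences were the strongest of a class with the motif outside promoters, and 3 of the 6, namely the kept one with the CTCF core, the kept one with STAT5 and the lost one with CTCF in WT only, were added after values were seen. Members, lists and rules were chosen with earlier results of these data known. Alternatives were a stricter overlap, a stricter p, other promoter windows, summits in place of intervals, no motif mismatch, and the class members that recurred after LPS.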

Additional observations from a re-analysis of the deposited data

How the results depend on the processing

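The order of the classes for H3K27ac (kept, KO only, lost), CTCF (lost, kept, KO only) and promoters (KO only, kept, lost) was the same under every alternative run, while most values moved beyond their counting interval. The cause was not tested. The share of WT peaks kept was 26.3% with 50% of the peak covered, 32.3% with the summit inside the KO peak, 36.5% within 500 bp and 28.6% at a −log10 p of at least 10 in both lists, and the share of KO peaks without a WT peak was 29.2%, 27.3%, 23.1% and 19.0%. Without chromosomes X and Y both moved by less than their interval. For kept, lost and KO only peaks in turn, 50% coverage gave H3K27ac at 69.4%, 23.8% and 40.2%, CTCF at 16.0% of kept and 67.4% of lost, and promoters at 18.9% of lost and 32.6% of KO only. At a −log10 p of 10, H3K27ac was 73.1%, 22.0% and 53.1%, CTCF 26.2%, 78.3% and 8.70%, and promoters 24.2%, 19.5% and 36.1%. For the members of each class whose pattern recurred after LPS (11270, 27680 and 809 peaks), H3K27ac was 74.6%, 14.9% and 43.9%. CTCF was 26.7%, 85.7% and 21.4%, and promoters 47.7% of KO only. These are subsets of the same classes and not classes built anew from the LPS lists. With the SMC1 summit inside the other peak, H3K27ac was 45.2%, 12.03% and 25.9%, and CTCF 23.0%, 68.2% and 4.05%. With H3K27ac peaks of −log10 p of at least 10, the shares were 48.1%, 10.3% and 22.8%. Promoters of 1 kb gave 17.6%, 9.69% and 22.1%, and start sites of all transcripts 33.4%, 26.7% and 38.3%. The CTCF core with no mismatch was at 3.30%, 9.09% and 0.0132%. STAT5 at a −log10 p of 10 was at 23.2%, 2.92% and 10.4%.

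No paired analysis was possible because each condition had 1 list. Signal below the calling threshold of a list was not analysed here, so lost and KO only describe calls and not the absence of SMC1. The SMC1 lists end at a −log10 p of 7, and KO only peaks, with a median of 8.55, lay nearer to it than lost (13.5) or kept (18.3) peaks.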
